A study of Mus musculus with 9 samples.

Results

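Gα13-deficient and CD97-deficient cells were compared directly, as 3 libraries against 3, in type 2 conventional dendritic cells (cDC2s) of the spleen, which take up antigen and prime chiefly CD4 T cells. These 6 of the 9 RNA sequencing libraries of the series entered the fit, and the 3 wild-type (WT) libraries were left out of it and are given only as levels. Of 14209 genes in the count table, 11989 had at least 1 CPM (the count scaled to the library total) in 3 or more of the 6 libraries and were tested. All cells came from spleens of C57BL/6 mice of an age that the sources used here do not give. The Gα13-deficient group is titled G13_KO, and its genotype entry combines Adgre5-/- with CD11c-cre x Gna13fl/f, so that its labels name Adgre5 deficiency as well as deletion of floxed Gna13 by a Cre recombinase under the CD11c promoter. The CD97-deficient group has the genotype CD97 KO with no Cre named, and the WT group has none of these alleles by its label. CD11c is expressed in several dendritic cell and macrophage types, so the deletion is not limited to cDC2s by its driver. Nothing in the labels ties each library to its own mouse, so the p-values rest on library-to-library spread, part of which may be technical.

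CD97, encoded by Adgre5 (listed here as Cd97), belongs to the adhesion class of G protein-coupled receptors and is pulled on by its ligand CD55 on blood cells. Gα13, encoded by Gna13, is the α subunit of a G protein that activates RhoA through guanine nucleotide exchange factors and thereby controls actin, myosin and cell adhesion. Gq proteins instead act through phospholipase C β enzymes, which release calcium from stores. The direct comparison asks where loss of the G protein and loss of the receptor leave cDC2s with different RNA levels.

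The targeted genes were read first. Gna13 had 113.1, 98.1 and 92.4 CPM in replicates 1 to 3 of the Gα13-deficient group and 229, 217 and 254 CPM in the CD97-deficient group. The groups did not overlap, and the 3 WT libraries (217, 224 and 186 CPM) lay above the Gα13-deficient ones. The log2 fold change, Gα13-deficient over CD97-deficient, was -1.20 ± 0.09 (SE; adjusted p = 4.18e-06). Here and below adjusted p is from edgeR's quasi-likelihood test with Benjamini-Hochberg adjustment over all 11989 genes, and a gene is called where it is under 0.05. Cd97 had 1140, 1240 and 1024 CPM in the Gα13-deficient libraries, against 731, 842 and 451 CPM in the CD97-deficient ones and 1441, 882 and 1302 CPM in WT. All 3 Gα13-deficient libraries were above all 3 CD97-deficient ones (log2 fold change 0.75 ± 0.27, SE; adjusted p = 0.598), and it was not called. Without CD97-deficient replicate 3 it was 0.53 (adjusted p = 0.0388). The Cd97 level was thus not lower in the group whose genotype entry also names Adgre5-/-, and the sources used here do not say which part of either gene was deleted.

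The cell type label was checked on 27 genes of cDC2 identity, of which all 27 were tested. Their summed level was 7536 to 8170 CPM in the Gα13-deficient libraries, 7008 to 7529 CPM in the CD97-deficient ones and 7447 to 8389 CPM in WT. Between the knockouts 2 of them, Klf4 and Itgax, were called (7.41% of the list, against 0.425% of all genes). Total counts ran from 5679946 to 13904646 in the 6 libraries, and 3 counts in 1 library were worth 0.216 to 0.528 CPM. By Xist and by the sum of 4 Y-linked genes, each CD97-deficient library was of the female pattern, and of the Gα13-deficient libraries replicate 2 had a female pattern and replicates 1 and 3 a male one. Genotype and sex pattern therefore overlap in part. Markers of red pulp and other splenic macrophages summed to 2307 to 2540 CPM in the Gα13-deficient and 1567 to 3515 CPM in the CD97-deficient libraries, which overlap. In such bulk samples, fewer cells of a type and less RNA per cell cannot be told apart.

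The knockouts differed at few genes: 51 of 11989 were called (0.425%), 36 higher in the Gα13-deficient libraries (0.3%) and 15 lower (0.125%). In all 51 the groups did not overlap, as was the case for 13.4% of all tested genes (6.7% higher and 6.74% lower). The log2 fold change was above 1 in 16 of the higher genes and below -1 in 4 of the lower ones. At an unadjusted p under 0.05, 973 genes (8.12%) differed. For 9785 genes (81.6%) the 95% interval of the log2 fold change lay within 1 unit of 0, so a difference over 2-fold lies outside the interval for most genes tested. The count depends on the libraries and the model: it was 7 with the sex pattern as a term, 6 with all 9 libraries in the fit, and 41, 57 and 140 without Gα13-deficient replicates 1, 2 and 3. Leaving out a CD97-deficient library gave 95 calls for replicate 1, 32 for replicate 2 and 30 for replicate 3. All 51 genes kept their direction in all 16 alternative fits, which was largely set in advance because their groups do not overlap. Of the 51, 19 were called in each of the 6 fits without 1 library. The 4 genes Plcb1, Plcb4, Cox6a2 and Gna13 were called in all of the 16. With the sex pattern as a term, these 4 and Elavl4, Egr2 and St6galnac1 were called, and the other 44 of the 51 were not. This term leaves the genotype difference to Gα13-deficient replicate 2, the only female-pattern library of its group. A call kept or lost under it here or below therefore does not tell sex from genotype.

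**Figure D1:**
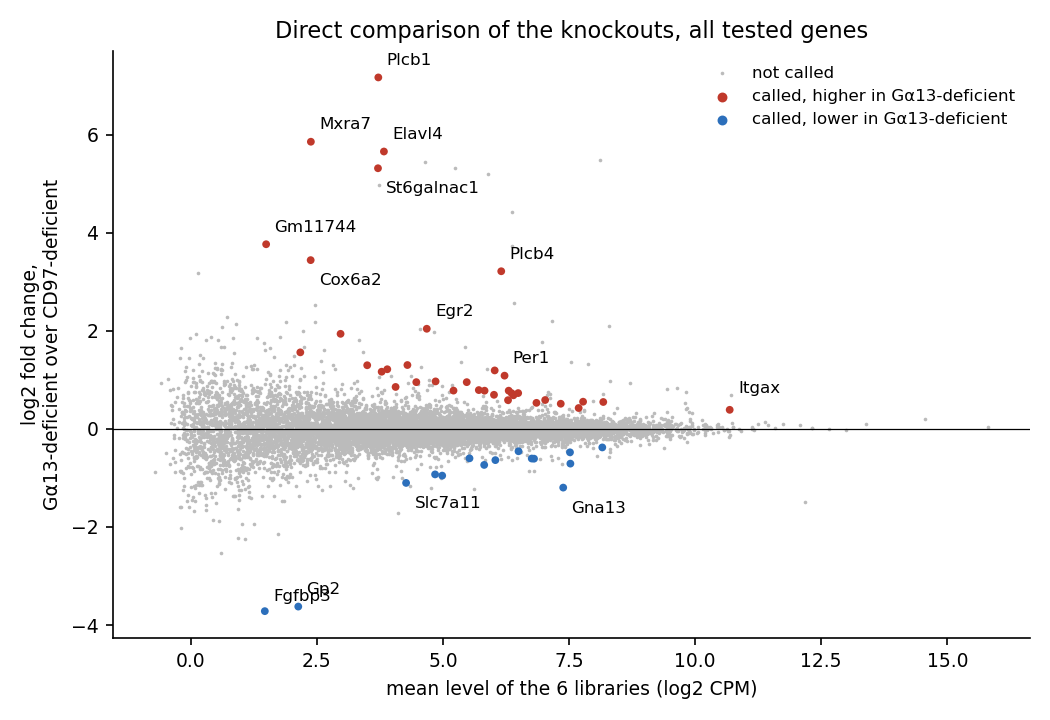
Each point is 1 of 11989 tested genes, with its mean level in the 6 knockout libraries on the x axis (log2 CPM) and the log2 fold change, Gα13-deficient over CD97-deficient, on the y axis. The 36 genes called higher (red) reach 7.16 at Plcb1, and the 15 called lower (blue) reach -3.72 at Fgfbp3.

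The largest fold change was that of Plcb1, and its neighbour Plcb4, another phospholipase C β gene, was higher too. Plcb1 was read 712 times in the 3 Gα13-deficient libraries and 4 times in the CD97-deficient ones. It had 22.7, 32.2 and 23.6 CPM in the former and 0, 0.294 and 0.23 CPM in the latter, and the WT libraries had 0.313, 0.4 and 0.511 CPM. The gene was thus at or near the counting floor in all 6 libraries outside the Gα13-deficient group. The ratio of the group totals was 150 (95% counting interval 58.2 to 551), and the adjusted p was 5.87e-08. Plcb4 had 130, 126 and 130 CPM in the Gα13-deficient, 18.6, 11.9 and 11.2 CPM in the CD97-deficient and 12.7, 15.2 and 8.68 CPM in the WT libraries. Its log2 fold change between the knockouts was 3.21 ± 0.16 (SE; adjusted p = 1.19e-06), and no library of the other groups came near the Gα13-deficient level. Both enzymes cleave the membrane lipid PIP2 downstream of Gq-coupled receptors.

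The other members of the Gq and phospholipase C β list were not called. Of 8 genes in the list 7 were tested, and 2 were called, both higher, against 0.3% of all genes called higher. The remaining isoforms Plcb2 and Plcb3 had log2 fold changes of -0.07 ± 0.08 and -0.15 ± 0.17 (SE). The α subunits that activate these enzymes had log2 fold changes of 0.12 ± 0.09 for Gnaq, 0.19 ± 0.16 for Gna11 and 0.68 ± 0.30 for Gna15 (SE; adjusted p = 0.812, 0.847 and 0.567). Gna14 was under the filter on low counts.

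Plcb1 (chromosome 2, 134786067 to 135475258, plus strand) and Plcb4 (135659011 to 136014593, plus strand) are consecutive among the tested genes of mm10. The other 19 of the 21 tested genes in and around this pair, up to 10 places from Plcb1, had log2 fold changes from -0.75 to 0.60, and 0 of them were called. The nearest neighbours on either side, Tmx4 and Mkks, had 0.03 and 0.02. The sources used here do not say where the Cre transgene of the Gα13-deficient group sits in the genome, and its part in the counts of Plcb1 and Plcb4 was not tested. To show the starts of this neighbouring pair, the 300 bases around each are printed, 250 before and 50 after, from the RefSeq table for GRCm38.p6 (the mm10 build). These are the windows of Plcb1 at chr2:134785914-134786213, + strand, and of the first start of Plcb4 at chr2:135659297-135659596, + strand:
Plcb1: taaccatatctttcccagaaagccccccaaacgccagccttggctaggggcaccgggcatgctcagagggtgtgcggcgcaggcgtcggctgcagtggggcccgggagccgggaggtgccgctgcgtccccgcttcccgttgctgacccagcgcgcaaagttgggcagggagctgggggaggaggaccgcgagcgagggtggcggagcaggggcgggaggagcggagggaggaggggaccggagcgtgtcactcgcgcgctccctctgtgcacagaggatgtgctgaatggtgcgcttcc
Plcb4: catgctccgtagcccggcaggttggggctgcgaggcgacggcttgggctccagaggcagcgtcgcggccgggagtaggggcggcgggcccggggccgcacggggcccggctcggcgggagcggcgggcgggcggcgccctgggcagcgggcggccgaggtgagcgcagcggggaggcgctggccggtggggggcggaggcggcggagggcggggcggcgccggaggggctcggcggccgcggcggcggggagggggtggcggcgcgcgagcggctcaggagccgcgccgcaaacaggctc
The Plcb1 window holds 26 CpG dinucleotides and is 69.7% G or C, and the Plcb4 window holds 50 and is 84% G or C, against a median of 7 CpG over 32851 windows. A second Plcb4 start in the table has 3 CpG in its window.

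A second run of neighbours lies on chromosome 7 at Itgax, the gene that encodes CD11c and whose promoter, by the label, drives the Cre of the Gα13-deficient group. Itgax had 1892, 1955 and 1744 CPM in the Gα13-deficient and 1351, 1466 and 1471 CPM in the CD97-deficient libraries, with WT at 1390, 1337 and 1589 CPM. The Gα13-deficient libraries were the 3 highest of 9, and the log2 fold change between the knockouts was 0.39 ± 0.07 (SE; adjusted p = 0.0192). Cox6a2, a cytochrome c oxidase subunit of heart and muscle, had 10.9, 7.75 and 9.997 CPM against 1.07, 0.735 and 0.806 CPM, and 1.25, 2.0 and 0.34 CPM in WT. Every Gα13-deficient library was several times above every other library. The log2 fold change was 3.44 ± 0.32 (SE; adjusted p = 5.41e-05).

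Between these 2 called genes lie Itgad, which encodes the integrin αD subunit, and 4931431B13Rik. Itgad had 178, 217 and 186 CPM in the Gα13-deficient and 80.1, 35.4 and 53.4 CPM in the CD97-deficient libraries, with WT at 26.6, 59.5 and 42.4 CPM. The groups did not overlap, but the log2 fold change of 1.78 ± 0.32 (SE; adjusted p = 0.217) did not pass. Cox6a2 and 4931431B13Rik lie within Itgad on the opposite strand, so counts made without strand cannot separate them from it, and the sources used here do not say whether it was used. On the other side of Itgax, Itgam, which encodes CD11b, had 626, 661 and 667 against 524, 534 and 500 CPM (log2 fold change 0.33 ± 0.07, SE; adjusted p = 0.0504), just outside the threshold.

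The 5 genes from Itgam to Cox6a2 span 161 kb (chromosome 7, 128062640 to 128223816) and all had positive log2 fold changes, from 0.33 to 3.44. The remaining 16 tested genes within 10 places of Cox6a2 had -0.14 to 0.29, and 0 were called. Pycard and 9130023H24Rik, which flank the run, had -0.04 and -0.14. The call of Itgax is the least stable of these, since only 1 of the 6 fits without 1 library called it (highest adjusted p = 0.0805), while Cox6a2 was called in all 6. The sources used here do not say which stretch of the Itgax locus the Cre transgene carries, and its part in these counts was not tested. For reference, the RefSeq window of the Itgax start (chr7:128129300-128129599, + strand) reads:
Itgax: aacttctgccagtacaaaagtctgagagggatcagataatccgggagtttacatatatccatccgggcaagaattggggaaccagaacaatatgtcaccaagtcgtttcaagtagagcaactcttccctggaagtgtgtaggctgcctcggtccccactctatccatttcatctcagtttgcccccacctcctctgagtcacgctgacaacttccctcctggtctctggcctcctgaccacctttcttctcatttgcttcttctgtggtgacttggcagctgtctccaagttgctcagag
It holds 5 CpG and is 50% G or C.

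The other integrin genes were not called. Of the 5 β2 integrin genes tested, Itgax was called higher (20%, against 0.3% of all genes called higher). Itgb2, the shared β2 subunit, and Itgal, the LFA-1 α subunit, had log2 fold changes of 0.06 ± 0.07 and 0.05 ± 0.10 (SE). Their groups' CPM values overlapped. Of 10 genes for β1, β7 and αV integrins and their partners 0 were called. The lowest p among them belonged to Itgav (log2 fold change -0.18 ± 0.08, SE; adjusted p = 0.598).

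**Figure D2:**
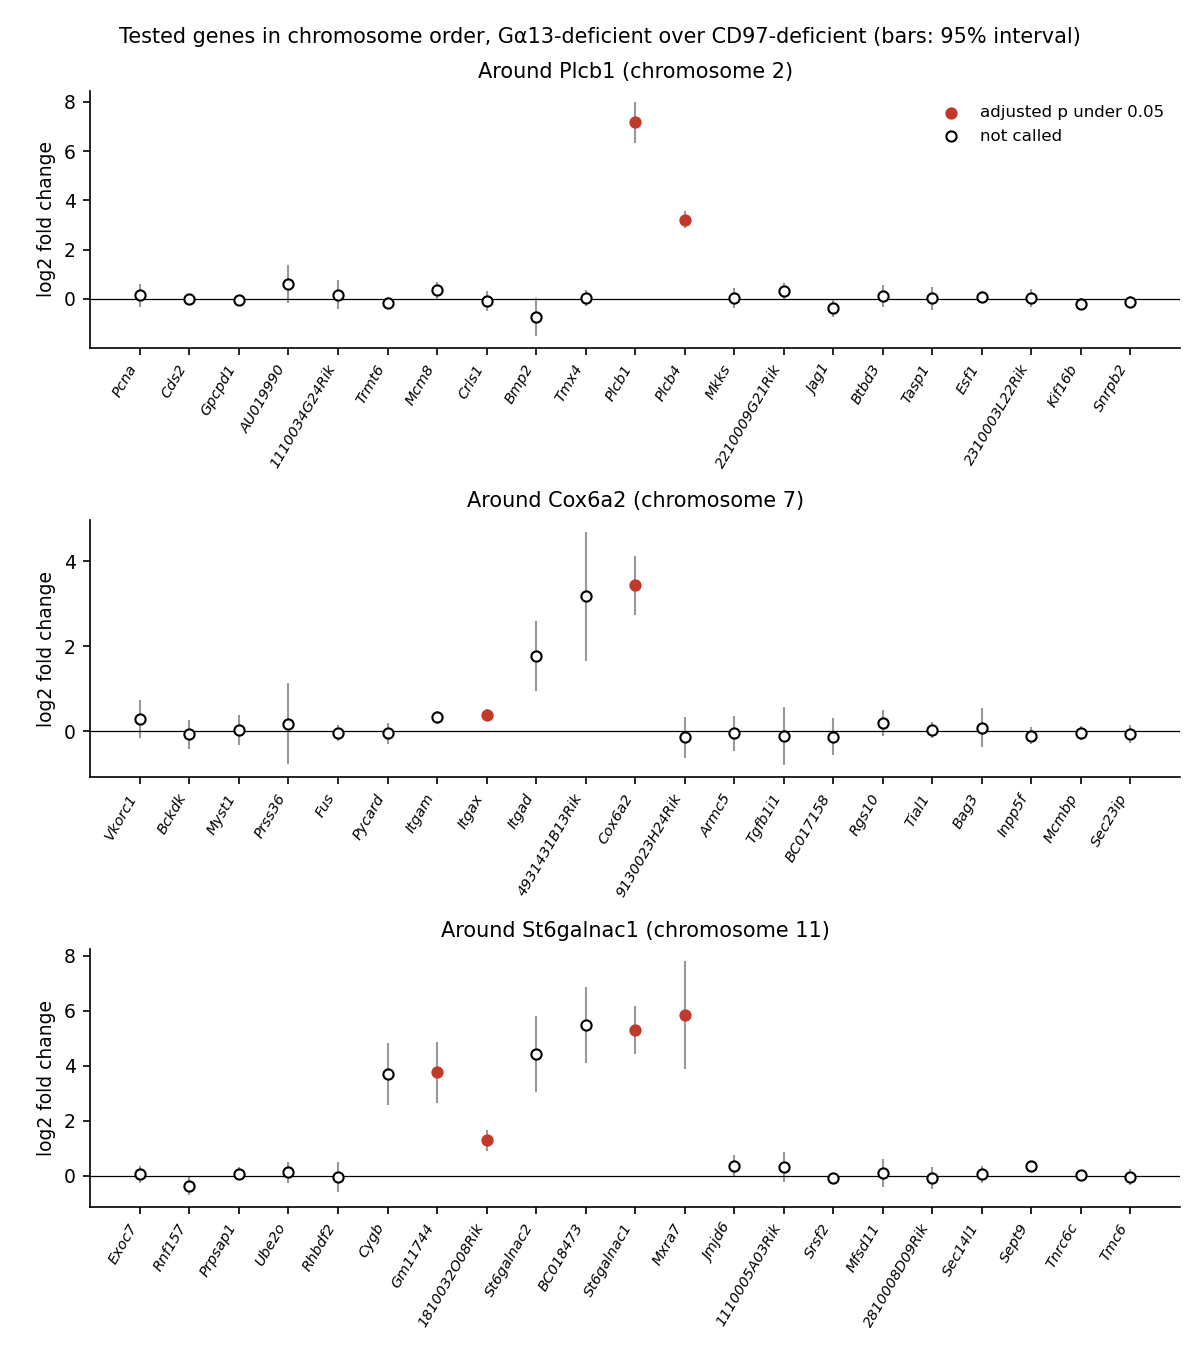
Tested genes are drawn in chromosome order, up to 10 places on either side of Plcb1, Cox6a2 and St6galnac1, with the log2 fold change (Gα13-deficient over CD97-deficient) and its 95% interval; filled points have an adjusted p under 0.05. Plcb1 and Plcb4 stand alone at 7.16 and 3.21, the second run covers 5 genes from Itgam (0.33) to Cox6a2 (3.44), and the third covers 7 genes from Cygb (3.72) to Mxra7 (5.85).

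The third run, on chromosome 11, separated the knockouts, and the WT libraries differed there among themselves. It covers 7 consecutive tested genes in 182 kb (116645595 to 116828046), of which St6galnac1, Mxra7, Gm11744 and 1810032O08Rik were called and Cygb, St6galnac2 and BC018473 were not. St6galnac1, a sialyltransferase of O-linked glycans, had 36.5, 22 and 18.2 CPM in the Gα13-deficient and 0.595, 1.03 and 0.345 CPM in the CD97-deficient libraries (log2 fold change 5.31 ± 0.40, SE; adjusted p = 6.64e-05). WT had 61.4, 1.07 and 34.5 CPM. WT replicates 1 and 3 thus lay within or above the Gα13-deficient range, and WT replicate 2 lay just above the CD97-deficient range.

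The rest of the run had the same arrangement of libraries. BC018473 was the most abundant by CPM, with 852, 402 and 370 CPM in the Gα13-deficient, 10.8, 12.5 and 13.1 CPM in the CD97-deficient and 1276, 12.4 and 554 CPM in the WT libraries (log2 fold change between the knockouts 5.48 ± 0.51, SE; adjusted p = 0.0573). St6galnac2, a related sialyltransferase, had 243, 131 and 100 CPM against 8.69, 5 and 8.17 CPM, with WT at 320, 7.99 and 167 CPM. Cygb, which encodes the globin cytoglobin, had 235, 117 and 112 CPM against 12, 9.55 and 13.6 CPM, with WT at 264, 15.5 and 288 CPM. The log2 fold changes of St6galnac2 and Cygb were 4.42 ± 0.51 and 3.72 ± 0.43 (SE; adjusted p = 0.0897 and 0.0807). Summed over the 7 genes, the Gα13-deficient libraries had 634 to 1427 CPM and the CD97-deficient ones 38.8 to 48.1 CPM, and WT replicates 1, 2 and 3 had 1976, 49.8 and 1112 CPM.

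Over the 7 genes, 1 of the 3 WT libraries was near the level of the CD97-deficient ones. This WT library has the female sex pattern, as do all CD97-deficient libraries. Gα13-deficient replicate 2, which has the female pattern as well, had 708 CPM over the 7 genes, between the other libraries of its group. The part of sex or genotype in this run was not tested. With the sex pattern as a term, St6galnac1 was called, and Gm11744, 1810032O08Rik and Mxra7 were not (adjusted p = 0.227 for each). With all 9 libraries in the fit the adjusted p of St6galnac1 was 0.694. The 14 other tested genes within 10 places of St6galnac1 had log2 fold changes from -0.36 to 0.38, and 0 were called. Gm11744 (Prcd in the annotation) overlaps Cygb, and 1810032O08Rik overlaps St6galnac2, each on the opposite strand.

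**Figure D3:**
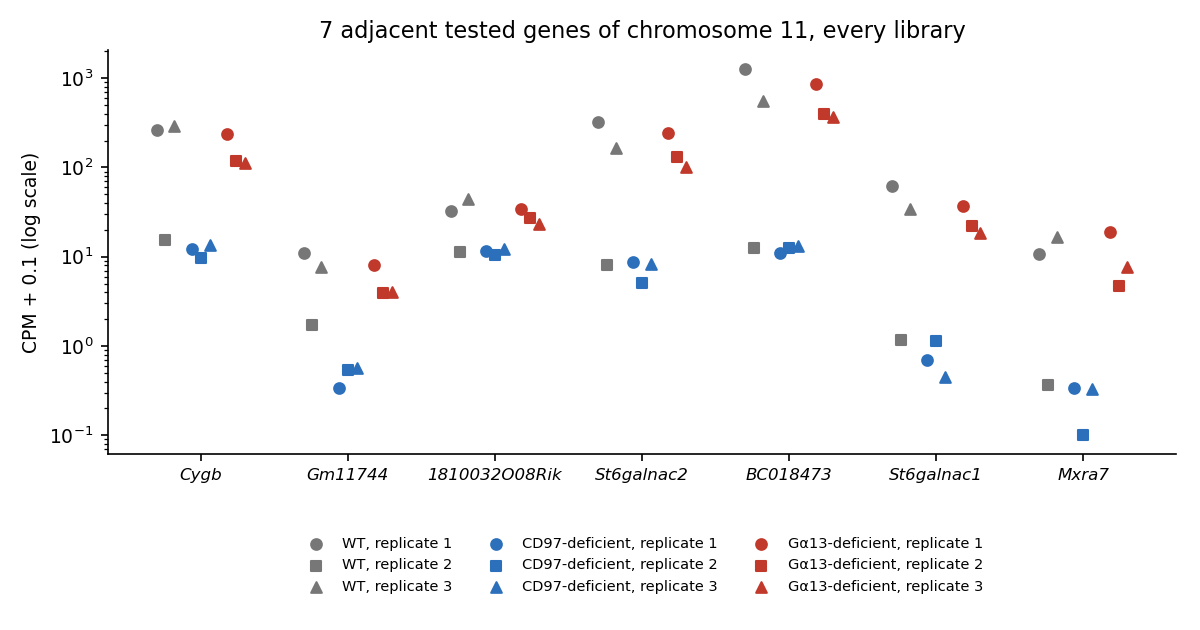
Levels of the 7 consecutive tested genes of chromosome 11 in all 9 libraries are given as CPM + 0.1 on a log axis, with colour for the group and marker shape for the replicate. The 3 CD97-deficient libraries and WT replicate 2 (grey squares) lie below every Gα13-deficient library for each gene, and the Gα13-deficient libraries and WT replicates 1 and 3 are high.

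Chromosome 11 also carries Gna13 itself (109362831 to 109401369), and 10 of its 1003 tested genes were called (0.997%), against 0.425% of all tested genes. The 10 include Gna13 and the called genes of the run above, St6galnac1, Mxra7, Gm11744 and 1810032O08Rik, so they are not 10 separate places. Chromosomes 17 and 1 had 0.96% and 0.856% called, and chromosome 8, where Cd97 lies, 0 of 633. Abca5, an ABC transporter of lipids 6 places from Gna13, was higher in the Gα13-deficient libraries (18.9, 16.5 and 21.6 CPM) than in the CD97-deficient ones (8.34, 9.26 and 8.17 CPM) (log2 fold change 1.16 ± 0.18, SE; adjusted p = 0.00788). The groups did not overlap, and WT, at 32.0, 14.8 and 41.9 CPM, overlapped the Gα13-deficient range only. Gm11696, which overlaps the start of Gna13 on the opposite strand, had -1.0 ± 0.37 on the log2 scale (SE; adjusted p = 0.442). Ccdc46, 3 places before Gna13, had -2.54 ± 0.53 (SE; adjusted p = 0.0532).

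Outside these runs, Elavl4, a neuronal RNA-binding protein of the Hu family, had the smallest p. It had 30.2, 26.8 and 26.8 CPM in the Gα13-deficient and 0.595, 0.441 and 0.575 CPM in the CD97-deficient libraries, a ratio of group totals of 51.2 (95% counting interval 29.8 to 96.6; adjusted p = 6.49e-09). The WT libraries were spread over this whole gap, with 0.313, 1.6 and 20.8 CPM. With all 9 libraries in the fit the adjusted p was 0.652.

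The early response genes, the transcription factors and phosphatases induced within minutes of a stimulus, leaned towards higher levels in the Gα13-deficient cells, with few calls. Of 28 listed 26 were tested, 23 had a positive log2 fold change, and the median was 0.61, against -0.01 over all tested genes. The called members were Egr2 and Klf4 (7.69% of the list, against 0.425% of all genes), and DESeq2 called 12 members, all higher. At an unadjusted p under 0.05, 17 of the 26 were higher and 0 lower, against 4.18% of all genes higher. The summed level was 6421, 4374 and 4534 CPM in the Gα13-deficient and 3043, 2902 and 3043 CPM in the CD97-deficient libraries, which do not overlap, and 4736, 4238 and 3128 CPM in WT.

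Egr2, a zinc finger transcription factor induced by receptor signalling, had 51.3, 36.3 and 36.1 CPM in the Gα13-deficient, 12.3, 9.11 and 8.75 CPM in the CD97-deficient and 28.7, 24.5 and 11.9 CPM in the WT libraries. The knockouts were well apart, and WT replicates 1 and 2 lay between them while WT replicate 3 lay in the CD97-deficient range. The log2 fold change was 2.04 ± 0.19 (SE; adjusted p = 5.41e-05), and the call held in all 6 fits without 1 library and with the sex pattern as a term, but not with all 9 libraries in the fit (adjusted p = 0.0701). Klf4, a transcription factor needed for part of the cDC2 lineage, had 102, 96.0 and 83.6 CPM against 60.8, 59.5 and 67.9 CPM (log2 fold change 0.58 ± 0.10, SE; adjusted p = 0.0138). Its WT levels, 44.6, 51.7 and 48.5 CPM, were below both knockouts. Jun, an AP-1 subunit, had 429, 285 and 295 CPM against 157, 128 and 122 CPM, which do not overlap, and Dusp1, a phosphatase of MAP kinases, had 701, 496 and 460 CPM against 269, 293 and 307 CPM. Their log2 fold changes of 1.32 ± 0.20 and 0.94 ± 0.16 (SE; adjusted p = 0.0897 and 0.0959) did not pass.

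The size of this difference moved with the libraries and with the sex term. Gα13-deficient replicate 1 was the highest of its group for 24 of the 26 tested early response genes and for 10 of 12 tested heat shock genes. The same share over all tested genes was not taken. Replicate 1 was also the highest for 15 of 24 NF-κB, 14 of 19 plasmacytoid and 13 of 20 MHC class II genes. It was the highest for 15 of 38 maturation and 12 of 38 cholesterol genes, but for 1 of 52 cell cycle and 4 of 33 MRTF and SRF genes. Without it the median of the early response list was 0.47 with 5 members called, and with the sex pattern as a term it was 0.41 with 1 called. Over all 16 alternatives it ran from 0.41 to 0.72. The heat shock list, chaperones induced by protein stress, had a positive log2 fold change in 12 of 12 and a median of 0.44. It had 0 called by edgeR (4 by DESeq2) and 5 higher at an unadjusted p under 0.05, against 4.18% of all genes higher. Its summed level was 6143, 4749 and 4745 CPM against 4190, 3540 and 3232 CPM, with WT from 2063 to 6429 CPM. The median was 0.14 without Gα13-deficient replicate 1 and 0.20 with the sex pattern as a term. Hsp90ab1, a cytosolic HSP90 chaperone and the member with the smallest p, had 0.69 ± 0.12 on the log2 scale (SE; adjusted p = 0.0579). The part of such stress genes in the other differences was not tested.

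The promoters of called genes were searched on both strands for the CArG box, the motif bound by serum response factor (SRF), which serves both early response genes and the actin-regulated MRTF targets downstream of RhoA. Of the 36 higher genes 24 had a RefSeq window, and 2 of them, Egr2 and Elavl4, held a CArG box (8.33%), against 1.48% of 8568 tested genes with a window. Of 13 lower genes with a window 0 held one. A gene counted as a match if any of its windows held the box, so genes with more starts had more chances. Called genes were also matched through synonyms, and the tested genes by symbol alone. The shares are therefore not fully alike, and their difference was not tested. The Egr2 window (chr10:67537619-67537918, + strand) and the Elavl4 window (chr4:110287478-110287777, - strand) are shown because these genes are among the 7 with the smallest p, with the CArG box in capitals:
Egr2: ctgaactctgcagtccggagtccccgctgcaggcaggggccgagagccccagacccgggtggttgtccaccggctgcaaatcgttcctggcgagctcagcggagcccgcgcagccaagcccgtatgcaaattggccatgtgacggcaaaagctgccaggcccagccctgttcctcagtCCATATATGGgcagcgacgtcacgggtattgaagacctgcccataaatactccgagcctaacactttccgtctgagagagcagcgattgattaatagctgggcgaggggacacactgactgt
Elavl4: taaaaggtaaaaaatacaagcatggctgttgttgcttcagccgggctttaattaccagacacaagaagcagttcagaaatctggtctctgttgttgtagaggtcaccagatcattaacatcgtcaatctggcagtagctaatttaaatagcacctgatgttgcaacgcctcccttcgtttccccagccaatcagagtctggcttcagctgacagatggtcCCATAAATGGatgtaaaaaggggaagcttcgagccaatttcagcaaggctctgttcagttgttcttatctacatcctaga
A match of letters does not show binding. Both genes have further starts in the table. Overlapping windows of Egr2 (2) and Elavl4 (1) hold the same match, another Egr2 window holds a different CArG box, and 1 further Egr2 window and 2 further Elavl4 windows hold none.

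Targets of the MRTF and SRF factors as a list held no called gene. Of 39 listed 33 were tested, with 0 called by edgeR (1 by DESeq2), a median log2 fold change of -0.01, and 30 of 33 95% intervals within 1 unit of 0. At an unadjusted p under 0.05, 2 were higher (against 4.18% of all genes) and 1 lower (against 3.94%). The smallest p belonged to Ahnak, a large scaffold protein at the membrane, with 337, 281 and 280 CPM against 211, 157 and 240 CPM (log2 fold change 0.57 ± 0.14, SE; adjusted p = 0.241). Of 21 tested genes of the Gα12/13 to RhoA list, Gna13 alone was called (4.76%, against 0.425% of all genes), and the median was 0.00. Arhgef12, 1 of the exchange factors that link Gα13 to RhoA, had 16.4, 15.8 and 12 CPM against 22.9, 18.7 and 19.6 CPM (log2 fold change -0.47 ± 0.17, SE; adjusted p = 0.445).

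The cell cycle genes were close to level between the knockouts. All 52 genes were tested, and 0 were called by edgeR or DESeq2. At an unadjusted p under 0.05, 2 were higher, against 4.18% of all genes. Of the 52, 43 had a positive log2 fold change with a median of 0.10, and all 52 intervals lay within 1 unit of 0. The range was -0.17 to 0.23. Leaving out Gα13-deficient replicate 1, 2 or 3 moved the median to 0.17, 0.06 or 0.01, and leaving out CD97-deficient replicate 2 moved it to 0.04. Mki67, the proliferation marker, had 1641, 1719 and 1927 CPM in the Gα13-deficient and 1659, 1599 and 1649 CPM in the CD97-deficient libraries, and 926, 1020 and 746 CPM in WT. The knockouts overlapped, and both were above all WT libraries.

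Genes of cholesterol synthesis, uptake and efflux, read as 1 list, leaned the other way without a call. All 38 were tested, 0 were called by edgeR (5 by DESeq2, all lower), 33 had a negative log2 fold change, and the median was -0.35. At an unadjusted p under 0.05, 18 were lower and 0 higher, against 3.94% of all genes lower. Sqle and Hmgcs1, enzymes of the synthesis pathway, had -0.66 ± 0.14 and -0.56 ± 0.12 (SE; adjusted p = 0.0571 and 0.0579). The summed level was 1931 to 2018 CPM against 2143 to 2796 CPM, with no overlap, and 1496 to 2035 CPM in WT. Without CD97-deficient replicate 1, 10 of the 38 were called lower and the median was -0.47, and without CD97-deficient replicate 3 it was -0.24 with 0 called.

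Among the receptors that position dendritic cells, 1 of 20 tested was called (5%, against 0.425% of all genes). At an unadjusted p under 0.05, 6 were higher (against 4.18% of all genes) and 1 lower (against 3.94%). The median was 0.11, and it ran from -0.01 without Gα13-deficient replicate 1 to 0.32 without CD97-deficient replicate 3, where 0 were called. Cxcr4, the receptor for CXCL12, had 83.2, 71.0 and 60.6 CPM in the Gα13-deficient, 39.8, 45.0 and 40.9 CPM in the CD97-deficient and 60.4, 45.0 and 28.1 CPM in the WT libraries. The knockouts were apart and WT spanned the lower one (log2 fold change 0.78 ± 0.12, SE; adjusted p = 0.00791). Cx3cr1, the fractalkine receptor, and Ccr9, a gut-homing chemokine receptor, had log2 fold changes of 0.61 ± 0.15 and 0.66 ± 0.16 (SE; adjusted p = 0.107 and 0.112). Gpr34, a lysophosphatidylserine receptor, had -0.51 ± 0.13 on the log2 scale (SE; adjusted p = 0.12). It overlaps the called gene Cask on the opposite strand.

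Of the 38 tested genes of dendritic cell maturation 0 were called by edgeR (1 by DESeq2) and 30 had a negative log2 fold change, with a median of -0.17. The median was -0.09 without Gα13-deficient replicate 3 and -0.11 without CD97-deficient replicate 3. At an unadjusted p under 0.05, 7 were lower (against 3.94% of all genes) and 1 higher. Pdcd1lg2, the inhibitory ligand PD-L2, had the smallest p (log2 fold change -0.57 ± 0.13, SE; adjusted p = 0.0971). The summed level was 3903 to 4248 CPM in the Gα13-deficient, 4313 to 4612 CPM in the CD97-deficient and 6206 to 6738 CPM in the WT libraries, and no 2 of these ranges overlapped.

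Of 24 tested NF-κB targets and inflammatory cytokines, Nfkbiz alone was called (4.17%, against 0.425% of all genes). It encodes an inducible nuclear IκB protein and had 295, 250 and 238 CPM against 184, 179 and 171 CPM (log2 fold change 0.55 ± 0.09, SE; adjusted p = 0.00895), with WT at 326, 281 and 265 CPM. Ccl4, a chemokine, had 13.8, 7.22 and 7.48 CPM against 2.86, 0.441 and 1.5 CPM (log2 fold change 2.53 ± 0.48, SE; adjusted p = 0.0579). The type I interferon list had 0 of 42 called and a median of 0.08, and the MHC class II list 0 of 20 and a median of -0.02. Of the interferon genes 5 were higher and 0 lower at an unadjusted p under 0.05. Of the MHC class II genes 1 was higher and 3 were lower at that level. Over all genes the shares were 4.18% higher and 3.94% lower. Of 8 RGS genes 0 were called, and Rgs1, the one with the smallest p, had 0.97 ± 0.34 on the log2 scale (SE; adjusted p = 0.592).

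**Figure D4:**
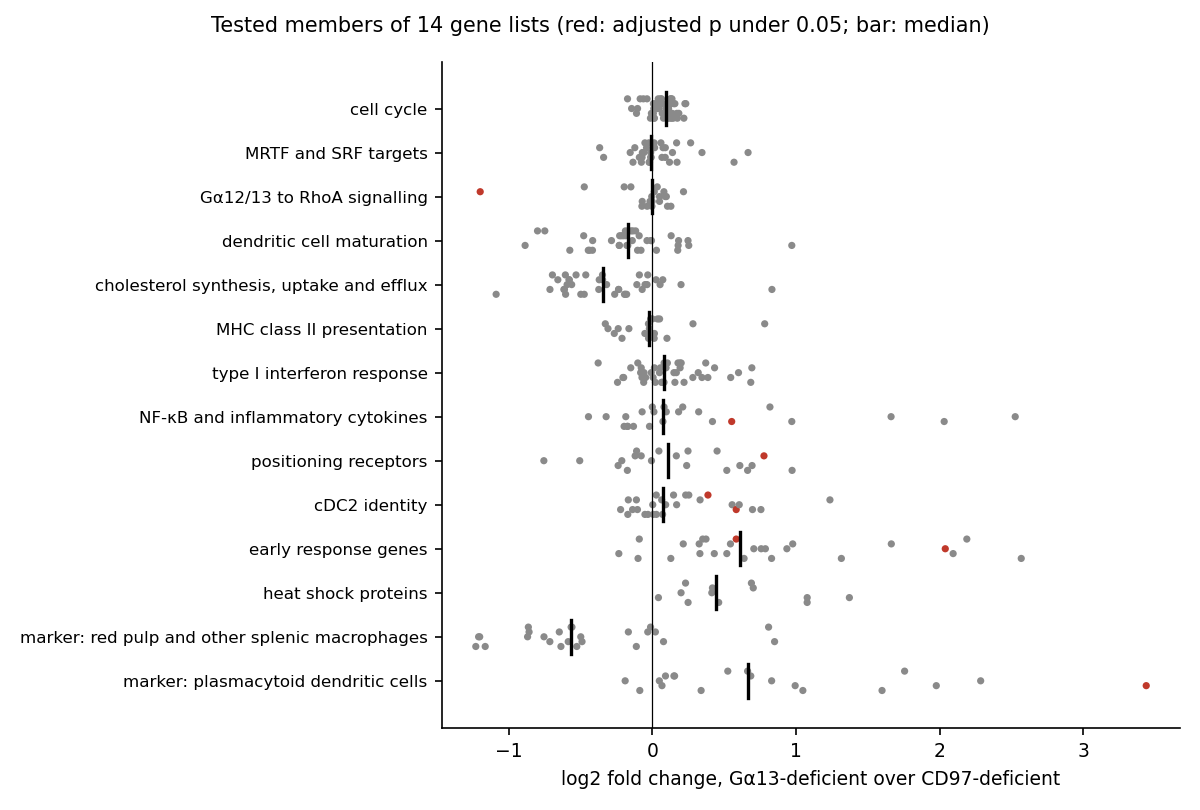
Each point is the log2 fold change (Gα13-deficient over CD97-deficient, x axis) of a tested member of 1 of 14 gene lists, bars mark list medians, and red points have an adjusted p under 0.05. Early response genes centre on 0.61 and cholesterol genes on -0.35, while cell cycle genes all lie between -0.17 and 0.23.

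Among the other genes called higher, Per1, a circadian repressor that glucocorticoids also induce, had 125, 96.5 and 83.0 CPM against 47.0, 46.6 and 50.2 CPM (log2 fold change 1.08 ± 0.13, SE; adjusted p = 0.00239). WT libraries had 110, 65.7 and 49.5 CPM, and so reached into both ranges. Fkbp5, a co-chaperone of the glucocorticoid receptor and a target of it, had 107, 75.0 and 89.8 CPM against 48.7, 36.1 and 34.8 CPM (log2 fold change 1.19 ± 0.16, SE; adjusted p = 0.0103), with WT at 101, 42.0 and 27.9 CPM. Zbtb16, the transcription factor PLZF, had 14.6, 8.45 and 14.1 CPM against 3.57, 3.82 and 2.53 CPM (log2 fold change 1.94 ± 0.27, SE; adjusted p = 0.003). In each of these 3 genes the WT level differed by more than 2-fold between WT libraries.

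The higher calls also took in Xdh, xanthine dehydrogenase of purine breakdown, which had 23.9, 17.3 and 21.3 CPM against 10.2, 7.35 and 9.44 CPM (log2 fold change 1.21 ± 0.19, SE; adjusted p = 0.00791). Xdh was 1 of 6 genes called with all 9 libraries in the fit, and its adjusted p was 0.542 with the sex pattern as a term. Sik1, a kinase induced by cAMP, was higher by 0.69 ± 0.11 on the log2 scale (SE; adjusted p = 0.00895, or 0.582 with the sex pattern as a term). Csf3r, the receptor for G-CSF, had 0.95 ± 0.18 (SE; adjusted p = 0.0303). It was the 1 called gene of 3 tested neutrophil markers (33.3%, against 0.425% of all genes), whose sum was 43.4 to 47.3 CPM against 25.7 to 30.0 CPM. Cask, a scaffold kinase on the X chromosome, had 0.73 ± 0.11 (SE; adjusted p = 0.00791), and with the sex pattern as a term its adjusted p was 0.548. The tested genes Gpr34 and Gpr82 overlap Cask on the opposite strand, so counts made without strand cannot separate them from it.

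Further called genes higher in the Gα13-deficient libraries were Gm11648, 1700025G04Rik, H3f3b, Tcof1, Odc1, Fkbp4, Tpcn1, Tagap, Ppp1r15a, Stip1, Atp2b4, Ifi203 and Cdkn1a. They have log2 fold changes of 0.42 (Ifi203) to 1.56 (Atp2b4). Odc1, the first enzyme of polyamine synthesis, had 0.79, Ppp1r15a, a stress-induced phosphatase subunit, 0.78, and Cdkn1a, the cell cycle inhibitor p21, 0.85. Gm11648 is annotated as an antisense RNA over Arhgap27. Of the 36 higher genes, 15 were called in all 6 fits without 1 library: Elavl4, Plcb1, Plcb4, Cox6a2, Egr2, St6galnac1, Gm11648, Per1, 1810032O08Rik, Gm11744, 1700025G04Rik, Zbtb16, Abca5, Xdh and Sik1. The other 21 lost the call in at least 1 of these fits, with highest adjusted p from 0.0512 (Cxcr4) to 0.356 (Mxra7).

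Among the 15 genes called lower, the log2 fold change was below -1 in Fgfbp3, Gp2, Gna13 and Slc7a11. Abcb1a, a multidrug efflux pump, had 80.7, 87 and 89.7 CPM in the Gα13-deficient and 128, 132 and 133 CPM in the CD97-deficient libraries (log2 fold change -0.61 ± 0.08, SE; adjusted p = 0.00277). WT, at 235, 125 and 154 CPM, lay above all Gα13-deficient libraries. Lphn3 (Adgrl3), an adhesion G protein-coupled receptor of the latrophilin family, had 130, 155 and 134 CPM against 224, 258 and 205 CPM (log2 fold change -0.71 ± 0.10, SE; adjusted p = 0.00413). Its 3 groups were ordered without overlap, with WT highest at 339, 291 and 389 CPM. It was also called with all 9 libraries in the fit, but not with the sex pattern as a term (adjusted p = 0.498).

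The largest fold changes among the lower calls were in genes of few counts. Fgfbp3, a carrier of fibroblast growth factors, was read 11 times in the Gα13-deficient and 120 times in the CD97-deficient libraries, with 0.565, 0 and 0.432 CPM against 5.6, 7.49 and 2.53 CPM. The ratio of totals was 13 (95% counting interval 7.0 to 26.7), and the adjusted p was 0.0113, or 0.0575 without CD97-deficient replicate 2. WT libraries had 0.209, 5.2 and 1.02 CPM and covered both ranges. Ide, the insulin-degrading enzyme, lies 4 places away on chromosome 19 and was lower too (log2 fold change -0.61 ± 0.11, SE; adjusted p = 0.0155). For Ide, WT replicate 2 (130 CPM) was within the CD97-deficient range of 118 to 150 CPM, and WT replicates 1 and 3 (70.3 and 70.6 CPM) were below the Gα13-deficient range of 80.8 to 94.0 CPM. Gp2, a glycoprotein receptor for bacteria, had 0.678, 1.41 and 0.216 CPM against 6.67, 4.11 and 13.2 CPM (log2 fold change -3.62 ± 0.61, SE; adjusted p = 0.0374, or 0.308 without Gα13-deficient replicate 1).

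Slc7a11, the cystine transporter, had 10.4, 12 and 14.1 CPM against 20.8, 24.5 and 33.9 CPM (log2 fold change -1.10 ± 0.19, SE; adjusted p = 0.0155). Hpgds, the prostaglandin D synthase of blood cells, had 19.9, 22.7 and 17.0 CPM against 35.5, 29.7 and 47.6 CPM (log2 fold change -0.93 ± 0.17, SE; adjusted p = 0.024). In both genes the WT libraries lay within or above the CD97-deficient range. Icos, a T cell costimulator, Skint3, Rasgrp3, an exchange factor for Ras and Rap1, Ffar2, a receptor for short-chain fatty acids, Arf2, Hdac1 and the transcript 2900052N01Rik complete the 15, with log2 fold changes from -0.95 (Skint3) to -0.38 (Ffar2). Icos, at an adjusted p of 0.05 when rounded, was the closest to the threshold. Of the 15 lower genes, Gna13, 2900052N01Rik, Abcb1a and Lphn3 were called in all 6 fits without 1 library. The other 11 lost the call in at least 1 of those fits, with highest adjusted p from 0.0544 (Arf2) to 0.308 (Gp2).

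**Figure D5:**
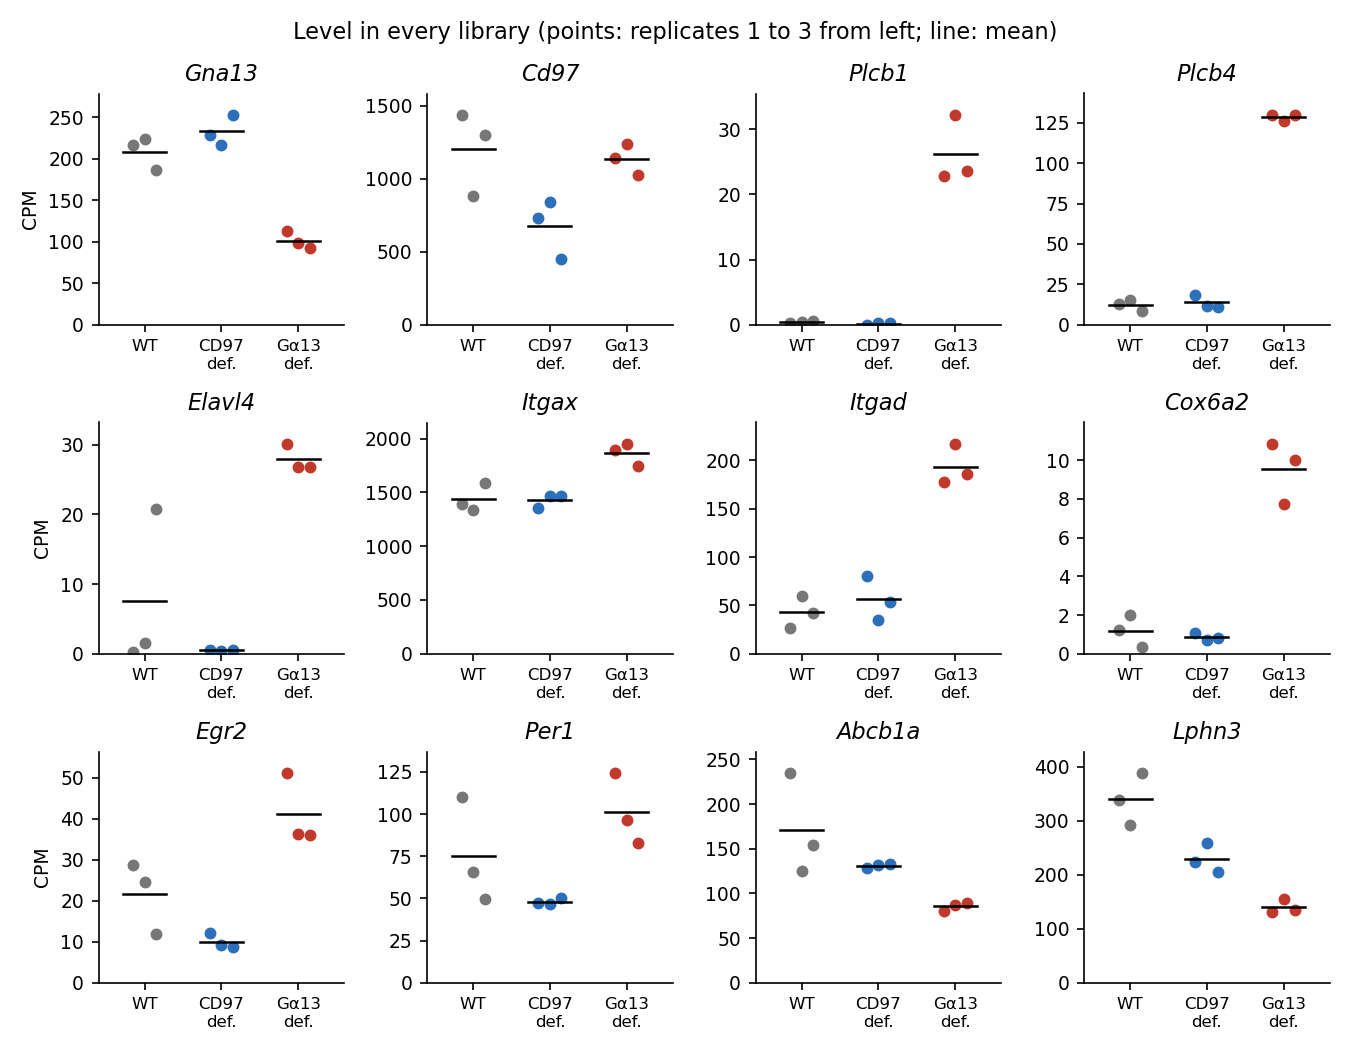
CPM of 12 genes in every library, with points for replicates 1 to 3 from left to right and a line for the group mean, for WT, CD97-deficient and Gα13-deficient cells. Plcb1, Plcb4, Itgax, Itgad and Cox6a2 are higher in all Gα13-deficient libraries than in any other, Lphn3 is ordered WT, CD97-deficient, Gα13-deficient, and in Elavl4 WT replicate 3 alone of the WT libraries comes close to the Gα13-deficient level.

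Set beside WT, the 51 called genes fell into different arrangements of levels, given as description because WT was not part of the fit. In 18 the range of the WT libraries overlapped that of the CD97-deficient libraries only, in 13 that of the Gα13-deficient libraries only, in 15 both and in 5 neither. These are 35.3%, 25.5%, 29.4% and 9.8% of the called genes, against 24.3%, 20.0%, 39.0% and 16.6% of the 1611 tested genes whose knockout groups do not overlap, and the difference was not tested. The first set holds Plcb4, Cox6a2, Itgax, Egr2, Cxcr4 and Gna13 among others. The second holds St6galnac1, Abca5, Xdh, Nfkbiz and Arf2 among others. The 5 with neither were Plcb1, Klf4, 2900052N01Rik, Lphn3 and Icos.

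Markers of other cell types were called in 2 genes, Cox6a2, listed as a plasmacytoid dendritic cell gene, and Csf3r. Cox6a2 lies within Itgad in the chromosome 7 run above, and counts made without strand cannot separate the 2 genes. Of 19 tested plasmacytoid markers, 17 had a positive log2 fold change with a median of 0.66, and 10 were higher at an unadjusted p under 0.05, against 4.18% of all genes. Their sum was 1458 to 1661 CPM in the Gα13-deficient and 1352 to 1458 CPM in the CD97-deficient libraries, adjoining without overlap. Siglech, the defining surface marker of these cells, had a log2 fold change of 1.98 with an unadjusted p of 0.0386. The B cell list had 0 of 13 called and a median of -0.56, and the macrophage list 0 of 25 and a median of -0.57, both with sums that overlap. The macrophage median ran from -1.0 without CD97-deficient replicate 2 to -0.12 without CD97-deficient replicate 1, and was -0.18 with the sex pattern as a term. The cDC1 list had 0 of 13 called and a median of 0.08, with sums of 1882 to 1959 CPM in the Gα13-deficient and 1983 to 2164 CPM in the CD97-deficient libraries. Monocyte markers had 0 of 12 called, with 5 higher (against 4.18% of all genes) and 1 lower (against 3.94%) at an unadjusted p under 0.05. The part of these cell types in the called differences was not tested. With the macrophage level as a term 45 of the 51 calls were made again. That level overlapped between the groups, so the term could remove little, and none was fitted for the other cell types.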

How the data were processed

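RNA from splenic cDC2s was sequenced, and the deposited table gives the authors' raw counts, as whole numbers, for each gene symbol. The submitters' processing notes name STAR, HTSeq, DESeq2 and the mm10 build with no version, and preparation followed standard Illumina methods per the labels. Groups and replicate numbers came from sample titles, and WT columns were matched to samples through source names. No row of the deposited count table has a total under 10. The 6 knockout libraries were fitted with edgeR 4.0.16 in R 4.3.3 (TMM factors, robust quasi-likelihood F-test, group as the only factor) on genes with at least 1 CPM in 3 libraries. Adjusted p is by Benjamini-Hochberg over all tested genes, with a threshold of 0.05. SEs were computed from the F statistic, CPM is scaled to the library total, and intervals for ratios of counts cover counting error only. The common biological coefficient of variation was 0.129. At these depths the median SE of a log2 fold change was 0.16. The script was tested on simulated data.

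The genes named are Cd97, Gna13, up to 15 called genes per direction by smallest p, up to 4 members per list (all in short lists) and neighbours within 10 places of called genes. Other called genes are named in addition, a few genes are not reported here, and a few more list members (Mki67, Siglech, Jun and Dusp1 among the latter) were added after their values were seen. Members and lists were chosen with earlier results of these data known. Symbols were matched to GENCODE vM21, 12797 directly and 1219 through a synonym, with 193 unmatched. Promoters are from RefSeq (GRCm38.p6). The alternatives were RLE factors, library totals, no filter, edgeR's own filter, DESeq2 1.42.0, all 9 libraries, the replicate block, the sex pattern or a macrophage level as a term, the 4 female-pattern libraries, and each library left out.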

Additional observations from a re-analysis of the deposited data

How the results depend on the processing

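The 51 calls (36 higher, 15 lower) became 52 with RLE factors, 51 with library totals, 69 without a filter (24 lower) and 53 with edgeR's own filter. DESeq2 called 139 (102 higher, 37 lower), among them all 51. The fit of all 9 libraries called 6 (4 higher, 2 lower), the sex pattern as a term 7 (6 higher, 1 lower), and the 4 female-pattern libraries alone, with 1 Gα13-deficient library whose spread is taken from the others, 28 (16 higher), of which 10 are among the 51. With 1 library left out the count ran from 30 to 140, with 20 to 68 higher and 7 to 77 lower. The replicate block gave 73 calls, 63 of them higher, with 41 of the 51 among them. No pairing by replicate number was seen, but 3 pairs are too few to exclude it. Of the same-number pairs 0 of 3 deviated together above a correlation of 0.1 (-0.077 to 0.00061). Closest to the library of the same number were 0 of 6 libraries. Values under the alternatives were taken for Cd97 and the 15 called genes of smallest p in each direction. Of these values 381 stayed on their side of the threshold, 114 lost the call and 1 (Cd97) gained it. Groups that do not overlap largely fix the sign, and 0 values changed it. The causes were not tested. Depth limits genes near 1 CPM, where Fgfbp3, Gp2, Mxra7 and Gm11744 rest on few counts in 1 group. Plcb1, Elavl4 and St6galnac1 do so too, with 4, 13 and 15 counts in the CD97-deficient libraries together.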
